A study of Mus musculus with 2 samples.

Results

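The genes described here encode 8 proteins of cytotoxic lymphocytes, the granule proteins granzyme A (Gzma), granzyme B (Gzmb), perforin (Prf1) and Nkg7, the receptors Ncr1 (NKp46) and Il2rb, and the T-box transcription factors Eomes and Tbx21 (T-bet). They were chosen by name, with earlier results of these data known. All 8 were found among the 22020 gene symbols of the table, and each was represented by its transcript with the highest mean over the libraries. RNA-seq had been made from LSK cells, blood progenitors sorted as lacking lineage markers and carrying c-Kit and Sca-1, a fraction that holds stem cells and early multipotent progenitors. There were 2 libraries from 8-week-old C57BL/6 mice: 1 of the p53 KO genotype, without the tumour suppressor p53, and 1 of the Utx/p53 DKO genotype, without p53 and without Utx (Kdm6a), a histone H3 lysine 27 demethylase. Both genotypes therefore lack p53, and neither library is wild type, although the p53 KO library carries WT in its title. The labels name no treatment agent. The promoter behind any conditional deletion, the number of mice per library and their sex are not given in the sources used here. With 1 library per genotype no test was possible, no p-value was computed and the spread between mice is unknown, so every value describes these 2 libraries and every interval covers counting error only.

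Natural killer (NK) cells and cytotoxic T cells kill by releasing granules that hold perforin, which forms pores in the target membrane, and granzymes, serine proteases that enter the target cell and start its death. Ncr1 is an activating receptor of NK cells, Il2rb is the chain shared by the receptors for interleukin-2 and interleukin-15, and Eomes and Tbx21 direct the maturation of NK and cytotoxic T cells. These genes are known from mature effector cells, which lie far downstream of the LSK compartment. Even so, Nkg7 ranked 197th in level among all 22020 symbols in the p53 KO LSK library, at 229 RPKM.

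The libraries held 17088105 (p53 KO) and 19926294 (DKO) reads, per the file header. Kdm6a, the targeted gene that differs between the genotypes, was 5.32 RPKM (reads scaled to transcript length and to the read total) in the p53 KO and 1.26 RPKM in the DKO library. Trp53, deleted in both genotypes, still had reads, at 19.4 RPKM in the p53 KO and 12.9 RPKM in the DKO library, and the labels do not say which part of either gene was deleted. Of the sort markers, Kit was 64.2 and 16 RPKM (p53 KO first) and Ly6a, which encodes Sca-1, was 255 and 281 RPKM. Differences are given on the log2(RPKM + 1) scale as DKO minus p53 KO, a scale that understates the change of low genes. A gene counted as measured when its mean over the libraries reached 1 RPKM, and it was called higher or lower when it differed 2-fold or more on this scale. Of 11356 measured genes, 750 were higher (6.6%) and 1528 were lower (13.5%), and the median difference of all measured genes was -0.24. The scaling moved that median by 0.18 (centring on genes whose mean reached 5 RPKM), 0.13 (equal upper quartiles), -0.32 (equal totals) and 0.50 (the authors' gfold constants). The share of called genes that were higher, 32.9%, became 48.2, 43.5, 15.5 and 74.3% in that order.

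Of the 8 genes, 7 had a higher RPKM in the DKO library and Nkg7 had a lower one. By the 2-fold rule, Gzma, Gzmb, Ncr1 and Il2rb were higher, Nkg7 was lower and Prf1 stayed within 2-fold, while Eomes and Tbx21 did not reach a mean of 1 RPKM and were not called. That is 4 higher and 1 lower among 6 measured, beside 6.6% and 13.5% of all measured genes. The median difference of the 6 was 1.46, and that of all 8 without the filter was 1.13, beside -0.24 for all measured genes. The genes were chosen with earlier results of these data known, and Prf1 reached the mean of 1 RPKM through its DKO value alone. These counts and medians therefore describe the genes and support nothing further. The 8 values summed to 246 RPKM in the p53 KO and 175 RPKM in the DKO library, of which Nkg7 gave 93.1% and 56.9%. Without Nkg7 the sums were 16.9 and 75.3 RPKM. In RNA of a sorted bulk fraction, more cells of a type and more RNA per cell cannot be told apart.

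**Figure D1:**
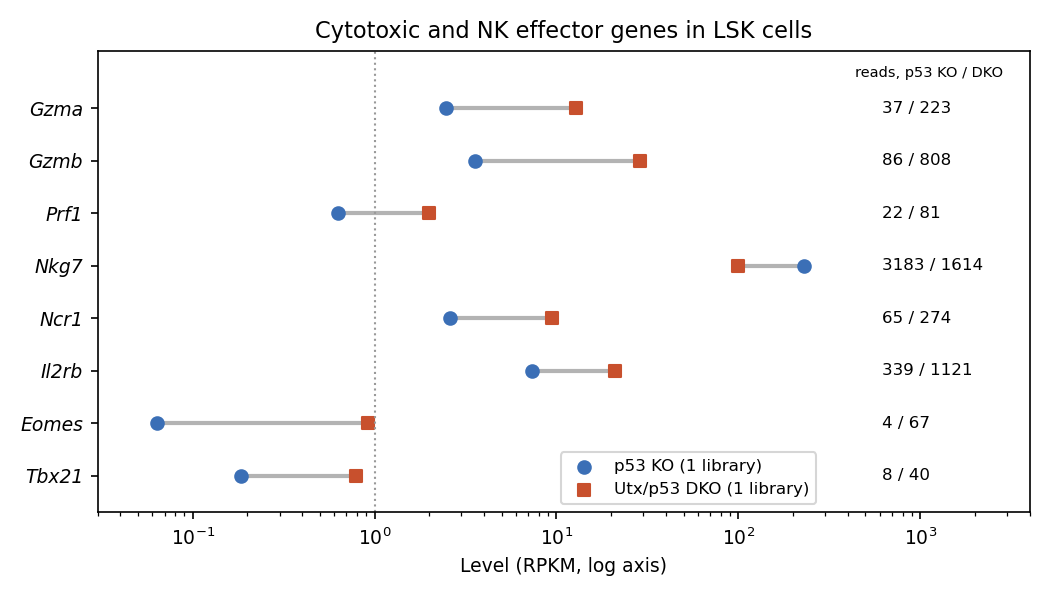
Level of each gene (RPKM, log axis) in the p53 KO library (circles) and the Utx/p53 DKO library (squares), with the whole reads behind each value at the right and a dotted line at 1 RPKM. Nkg7 lies far above the other 7 genes in both libraries and is the gene whose DKO value is the lower of the pair.

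To show the regions from which these genes are transcribed, the RefSeq promoter windows (GRCm38.p6, 250 bases before to 50 bases after the annotated start, printed 5′ to 3′ on the gene's strand) follow for 3 of the genes that were higher, Gzma, Gzmb and Ncr1, and for Nkg7, which was lower. Capitals mark matches to TGTGGT, the core letters bound by Runx factors, and to GGTGTGA, letters of the T-box site, each searched on both strands. The Ncr1 window is the first of 2 annotated starts.
Gzma, chr13:113100932-113101231, minus strand: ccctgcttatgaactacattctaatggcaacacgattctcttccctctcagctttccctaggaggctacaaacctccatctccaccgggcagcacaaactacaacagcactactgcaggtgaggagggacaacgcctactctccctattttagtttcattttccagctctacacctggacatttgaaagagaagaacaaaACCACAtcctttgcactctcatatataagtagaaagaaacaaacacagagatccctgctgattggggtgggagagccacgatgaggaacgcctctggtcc
Gzmb, chr14:56262285-56262584, minus strand: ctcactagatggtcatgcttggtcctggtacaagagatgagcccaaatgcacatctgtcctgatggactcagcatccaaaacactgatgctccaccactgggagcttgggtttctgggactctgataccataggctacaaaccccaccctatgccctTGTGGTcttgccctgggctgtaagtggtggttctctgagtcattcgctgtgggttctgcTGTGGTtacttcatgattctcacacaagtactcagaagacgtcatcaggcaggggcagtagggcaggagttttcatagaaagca
Ncr1, chr7:4337465-4337764, plus strand: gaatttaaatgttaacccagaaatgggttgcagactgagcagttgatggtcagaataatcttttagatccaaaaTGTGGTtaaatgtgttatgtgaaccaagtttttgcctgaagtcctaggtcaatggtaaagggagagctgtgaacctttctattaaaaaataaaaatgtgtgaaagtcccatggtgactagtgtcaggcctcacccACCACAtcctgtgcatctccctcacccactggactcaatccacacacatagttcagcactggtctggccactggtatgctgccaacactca
Nkg7, chr7:43436888-43437187, plus strand: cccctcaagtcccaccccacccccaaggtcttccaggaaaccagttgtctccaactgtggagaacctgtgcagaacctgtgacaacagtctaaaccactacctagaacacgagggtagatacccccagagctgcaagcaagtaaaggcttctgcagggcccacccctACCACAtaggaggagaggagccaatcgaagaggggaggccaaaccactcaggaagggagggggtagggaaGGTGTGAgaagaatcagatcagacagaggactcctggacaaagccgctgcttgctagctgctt
The Runx letters stood in all 4 windows: 1 match in Gzma, on the reverse strand as ACCACA, 2 in Gzmb, 2 in Ncr1 (1 on each strand) and 1 in Nkg7 on the reverse strand. The T-box letters were found in the Nkg7 window, as GGTGTGA, and in none of the other 3. Of the 8 genes, 7 had a window in the table. The Runx letters were in 5 of these 7 windows and the T-box letters in 1. Among 27025 windows of this length, 1 per gene, 16.9% held the Runx letters and 3.96% the T-box letters. The ETS letters GGAAGT, which stand in 24.1% of all windows, were in 2 of the 7, those of Prf1 and Tbx21. The motifs were chosen after the sequences had been seen, and a match is a description of letters, not of a bound site.

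Gzmb had the largest difference of the 6 measured genes. Granzyme B, which cleaves caspases and their substrates in target cells, was 3.55 RPKM in the p53 KO and 28.6 RPKM in the DKO library, from 86 and 808 reads. It was 8.06-fold higher (95% interval 6.44 to 10.2), a log2 difference of 2.70. In the p53 KO library its level exceeded that of 22.5% of the measured genes, and in the DKO library that of 79.7%. Granzyme A, a protease of different specificity whose gene lies on another chromosome (13, against 14 for Gzmb), followed the same direction. Gzma was 2.47 RPKM in the p53 KO and 12.7 RPKM in the DKO library, from 37 and 223 reads. It was 5.17-fold higher (95% interval 3.64 to 7.53), a log2 difference of 1.99, and moved from above 14.5% to above 62.4% of the measured genes.

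Of perforin and Nkg7, which act beside the granzymes in the granule, Prf1 had the direction of the granzymes but was not called, and Nkg7 was lower. Prf1 was 0.627 RPKM in the p53 KO and 1.98 RPKM in the DKO library, from 22 and 81 reads. The RPKM ratio was 3.16 (95% interval 1.95 to 5.31), an interval that overlaps that of Gzma, but on the log2(RPKM + 1) scale the difference was 0.87 and below the 2-fold rule. With a pseudocount of 0.1 it was 1.52, and with the authors' gfold constants 1.08, both past the rule. Nkg7, a membrane protein of cytotoxic granules that takes part in their release, was 229 RPKM in the p53 KO and 99.6 RPKM in the DKO library, from 3183 and 1614 reads. Among all 22020 symbols it ranked 197th in the p53 KO and 680th in the DKO library. It was 2.3-fold lower (95% interval 2.17 to 2.44), a log2 difference of -1.19. With the authors' gfold constants the Nkg7 difference was -0.59, still lower but within 2-fold.

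The receptor genes Ncr1 and Il2rb were both higher. Ncr1, whose product is used as a defining marker of NK cells and related innate lymphoid cells, was 2.6 RPKM in the p53 KO and 9.4 RPKM in the DKO library, from 65 and 274 reads. It was 3.61-fold higher (95% interval 2.75 to 4.81), a log2 difference of 1.53. With a pseudocount of 5 that difference was 0.92 and fell short of the rule. Il2rb was 7.36 RPKM in the p53 KO and 20.9 RPKM in the DKO library, from 339 and 1121 reads. It was 2.84-fold higher (95% interval 2.51 to 3.21), a log2 difference of 1.39, the smallest of the 4 genes called higher, and it rests on the most reads of these 4.

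The T-box genes had the fewest reads. Eomes was 0.064 RPKM in the p53 KO and 0.919 RPKM in the DKO library, from 4 and 67 reads, and its 2 transcripts carried the same reads. The RPKM ratio was 14.4 with a wide interval (5.36 to 54.3). Eomes shares annotated exon bases with Gm33460, a gene on the opposite strand, and strandedness of the libraries is not given. Whether reads of Gm33460 were counted as Eomes was not tested. Tbx21 was 0.183 RPKM in the p53 KO and 0.787 RPKM in the DKO library, from 8 and 40 reads, a ratio of 4.29 (95% interval 1.98 to 10.6). On the log2(RPKM + 1) scale the differences were 0.85 and 0.59, because both genes lie under 1 RPKM in both libraries. For scale, 1458 receptor genes of smell and pheromone sensing (symbols starting with Olfr, Vmn1r, Vmn2r, V1r or V2r) were looked at. In the p53 KO library 549 of them had at least 1 read, and in the DKO library 128. Of these receptor genes, 33.1% were at or above the level of Eomes and 23% at or above that of Tbx21 in the p53 KO library. In the DKO library the shares were 0.206% and 0.274%.

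In order of level, the p53 KO library ran Nkg7, Il2rb, Gzmb, Ncr1, Gzma, Prf1, Tbx21 and Eomes. The counting intervals of Gzmb (2.84 to 4.39 RPKM), Ncr1 (2.01 to 3.31) and Gzma (1.74 to 3.4) overlapped, as did those of Tbx21 (0.0792 to 0.361) and Eomes (0.0174 to 0.164). In the DKO library the order was Nkg7, Gzmb, Il2rb, Gzma, Ncr1, Prf1, Eomes and Tbx21, so Gzmb stood above Il2rb and Gzma above Ncr1. There the intervals of Gzmb (26.7 to 30.7) and Il2rb (19.7 to 22.1) did not overlap, nor did those of Gzma (11.1 to 14.5) and Ncr1 (8.32 to 10.6), while those of Eomes (0.712 to 1.17) and Tbx21 (0.562 to 1.07) did. The spread between mice, which these intervals leave out, is unknown.

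**Figure D2:**
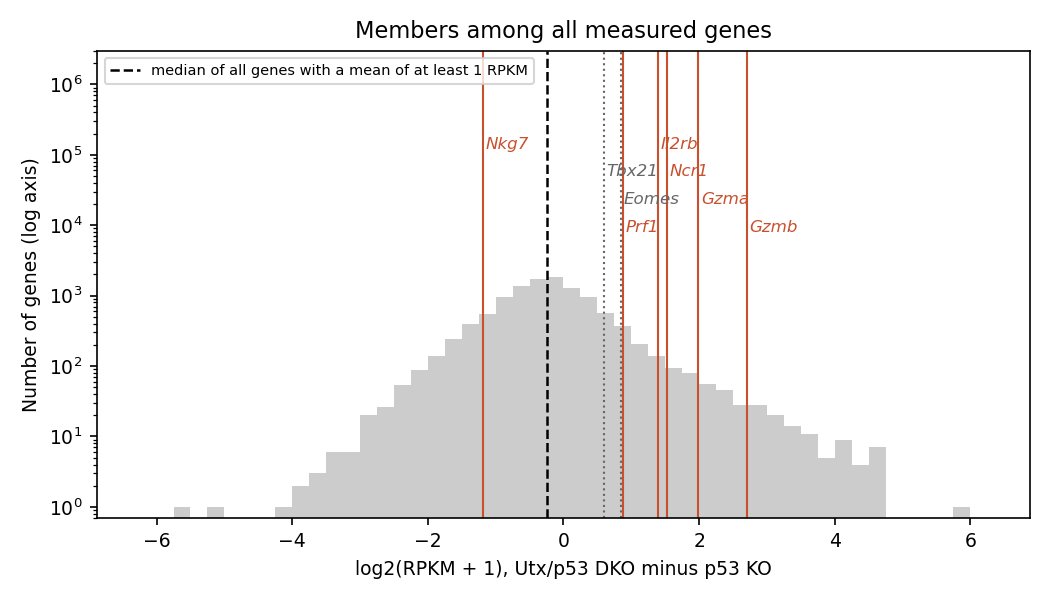
Number of measured genes (log axis) by their log2(RPKM + 1) difference, Utx/p53 DKO minus p53 KO, with the 8 genes as vertical lines (dotted for Eomes and Tbx21, which were not measured by the filter) and the median of all genes dashed. Gzmb at 2.70 and Gzma at 1.99 lie in the right tail, and Nkg7 at -1.19 lies left of the median of -0.24.

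The authors' deposited table also gives a GFOLD value, a log2 fold change shrunken for counting noise. In the authors' deposited table it was 3.24 for Gzmb, 2.62 for Eomes, 2.39 for Gzma, 2.00 for Ncr1, 1.90 for Il2rb, 1.47 for Prf1, 1.15 for Tbx21 and -0.50 for Nkg7. These values include the authors' gfold constants, which raise the DKO library over the p53 KO library by a log2 shift of 0.60. With those constants 74.3% of the genes called on the log2(RPKM + 1) scale were higher, beside 32.9% as reported. Of the 8 genes, 7 had in the authors' deposited table a value of at least 1, beside 7.74% of all 22020 symbols. Among the 6 measured genes these were 5, beside 13.3% of measured genes in the authors' deposited table, and none had a value of at most -1, beside 5.05%. The E-FDR of the authors' deposited table was 1 for every transcript, so it separates no gene from another. With 1 library per genotype it holds no spread between mice, and it is not read here as a sign of no difference.

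**Figure D3:**
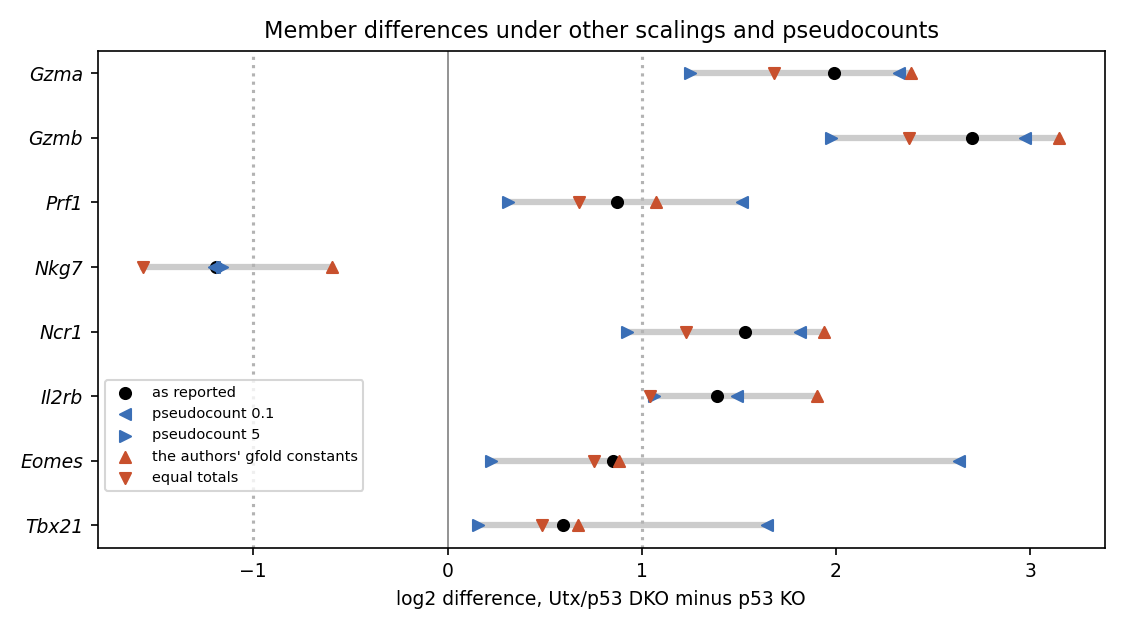
log2 difference of each gene, Utx/p53 DKO minus p53 KO, as reported and under other pseudocounts and scalings, with a grey bar from the lowest to the highest value over all settings that give a difference and dotted lines at 2-fold. Every gene keeps its direction, which a pseudocount cannot reverse, with Nkg7 between -1.57 and -0.59 and Gzmb between 1.98 and 3.15.

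Few of the other granzymes and their relatives were measured, and 1 of them, Ctsg, was higher. Of 18 genes of the granzyme and mast cell chymase families in the table, 5 were measured. Besides Gzma and Gzmb these were Gzmm, a granzyme of innate lymphocytes, at 2.82 and 3.67 RPKM, the basophil protease gene Mcpt8 at 17.2 and 17.7 RPKM, and the neutrophil protease gene Ctsg (cathepsin G) at 108 and 1160 RPKM. Ctsg was higher and the other pair stayed within 2-fold. Gzmk had 2 and 4 reads, Gzmc 15 and 10, and Gzme 4 and 0. Gzmd, Gzmf, Gzmg and Gzmn were listed at 0 in both libraries, where a count of 0 allows up to 3 reads. Gzmd, Gzme, Gzmf and Gzmg are close copies of each other, so their counts are uncertain.

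Besides the 4 genes already described, of which Gzma and Gzmb were higher and Nkg7 lower, the called genes of the granule's contents and maturation were higher, and among genes of its transport few were called. Leaving out those 4, 9 of 9 content, processing and inhibitor genes were measured, 4 were higher and none lower, and their median difference was 0.42. Serglycin (Srgn), the proteoglycan that holds granzymes in the granule and also serves granules of myeloid cells, was 643 RPKM in the p53 KO and 2194 RPKM in the DKO library. The lysosomal membrane gene Lamp1 was 31.5 and 123 RPKM, the protease gene Ctsh 50.6 and 154 RPKM, and the chaperone gene Calr 259 and 673 RPKM. The other 5 stayed within 2-fold. Of these, Ctsc was 53.1 and 66.2 RPKM, Ctsl 21 and 28.3 RPKM and Ctsw 23.9 and 22.4 RPKM. The inhibitor genes Serpinb9 and Serpinb6b were 7.25 and 5.45 RPKM and 5.82 and 3.24 RPKM. Of 12 measured genes of granule transport and release, 1 was higher, 1 was lower and 10 stayed within 2-fold, with a median of -0.09. The syntaxin gene Stx11, needed for granule fusion, was 0.709 and 3.32 RPKM, and the priming factor gene Unc13d was 10.4 and 4.02 RPKM and lower. Rab27a, which docks granules, was 22.9 and 35.2 RPKM, and Lyst 3.28 and 5.8 RPKM. Stx11, the higher one, passed the filter through the DKO library alone. The count of higher transport genes was 0 with a pseudocount of 5, with a mean of at least 5 RPKM and under the 3-fold rule, and 3 with the authors' gfold constants and under the 1.5-fold rule. The count of lower ones was 0 with a pseudocount of 5, with centring on the median, with the gfold constants and under the 3-fold rule. The difference between the lists was not tested.

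By the 2-fold rule on the log2(RPKM + 1) scale, no other measured gene of Il2rb's receptor system was called. Of 11 other measured genes of interleukin-2 and interleukin-15 signalling, 0 were higher, 0 lower, and the median was -0.20, close to the -0.24 of all genes. The common gamma chain Il2rg, which pairs with Il2rb, was 152 RPKM in the p53 KO and 90.4 RPKM in the DKO library, a log2 difference of -0.74. The interleukin-15 receptor alpha gene Il15ra was 3.71 and 7.4 RPKM, a log2 difference of 0.83, and Il2ra, the interleukin-2 receptor alpha gene, was 0.555 and 0.861 RPKM and not measured by the filter. Of the signalling genes, Stat5a was 16.9 and 8.85 RPKM and within 2-fold. The inhibitor Socs3 was 1.8 and 0.479 RPKM, from 84 and 26 reads. The RPKM of Socs3 was 3.77-fold lower (counting interval 2.4 to 6.1). On the log2(RPKM + 1) scale its difference was -0.92 and fell short of the 2-fold rule, so it was not called. With a pseudocount of 0.1, 1 of the 11 was lower. With equal totals 3 of the 11 were lower, and with the authors' gfold constants Il15ra was past the rule.

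Transcription factors of NK and cytotoxic lymphocytes went both ways. Of 13 measured, which leave out Eomes and Tbx21, 3 were higher and 3 lower, with a median of -0.78. Nfil3 and Id2, which act early in NK cell development, were among the 3 higher ones. Nfil3 was 3.67 RPKM in the p53 KO and 12 RPKM in the DKO library, and Id2 was 20.2 and 54.1 RPKM. Tox, a factor of NK and T cell development, was 3.84-fold lower (95% interval 3.28 to 4.5), at 14.1 and 3.68 RPKM. Bach2, which restrains effector differentiation and also serves B cells, was 4.74 and 0.591 RPKM. The third higher gene was Zeb2, a factor of late NK cell maturation, at 10 and 21.8 RPKM, and the third lower one Gata3, at 5.62 and 1.89 RPKM. These counts depended on the setting. With equal totals 2 of the 13 were higher and 7 lower, and with a pseudocount of 5, 1 was higher and 1 lower. With a mean of at least 5 RPKM, 3 were higher and 1 lower.

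Among activating receptors, adaptors and signalling genes of NK cells, the adaptor genes Fcer1g, Tyrobp and Hcst were higher, Cd247 was not called and other receptors went both ways. Besides Ncr1, 18 of the list were measured, 5 were higher, 3 lower and 10 within 2-fold, and the median was -0.05. Ncr1 signals through the adaptors Fcer1g and Cd247. Fcer1g, which myeloid cells also use, was 81.7 RPKM in the p53 KO and 256 RPKM in the DKO library, while Cd247, the zeta chain of NK and T cells, was 3.99 and 4.17 RPKM with an RPKM ratio of 1.04. The adaptor genes Tyrobp and Hcst, which serve killer lectin-like receptors and in the case of Tyrobp also myeloid receptors, were 117 and 249.9 RPKM and 14.4 and 56.4 RPKM. Cd160, a receptor of NK and T cells, was 8.63-fold higher (95% interval 6.35 to 12), at 1.05 and 9.05 RPKM. The Fc receptor gene Fcgr3, shared with granulocytes and macrophages, was 15.2 and 173 RPKM, and Slamf6 was lower, at 7.86 and 1.07 RPKM. The other two lower genes were Cd244, at 7.58 and 1.35 RPKM, and Cd96, at 7.62 and 1.63 RPKM. With a mean of at least 5 RPKM none of these 3 was measured, and 0 of the list were lower. Counting Ncr1, 6 of the list were higher as reported. That count was 5 with equal totals and with a pseudocount of 5, 7 with the authors' gfold constants and 8 with a pseudocount of 0.1. Of the higher genes, Tyrobp lay closest to the rule, with a log2 difference of 1.09.

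Killer lectin-like receptor genes, the family closest in use to the genes described here, were higher or within 2-fold, with none lower. Of 20 such genes, 15 were measured, 14 were higher and 0 lower, beside 6.6% and 13.5% of all measured genes, and the median was 1.46, beside 1.46 for the 6 measured effector genes. Klrb1c, which encodes the NK1.1 antigen, was 4.2 and 10.9 RPKM. Klrb1f was 11.1 and 88.5 RPKM, Klrc2 0.326 and 4.27 RPKM, Klre1 1.67 and 9.12 RPKM and Klra7 1.25 and 19.7 RPKM. Members of the Klra and Klrc families are close in sequence, and reads could be assigned to the wrong copy. Of the 15 measured genes, 6 passed the filter through the DKO library alone. The list was chosen with earlier results of these data known, so its counts describe the genes and support nothing further. The count of higher genes depended on the setting. It was 4 with a pseudocount of 5, 6 with a mean of at least 5 RPKM and 6 under the 3-fold rule. It was 10 with equal totals and 14 or 15 under the other alternatives, and no gene of the family was lower in any of them.

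**Figure D4:**
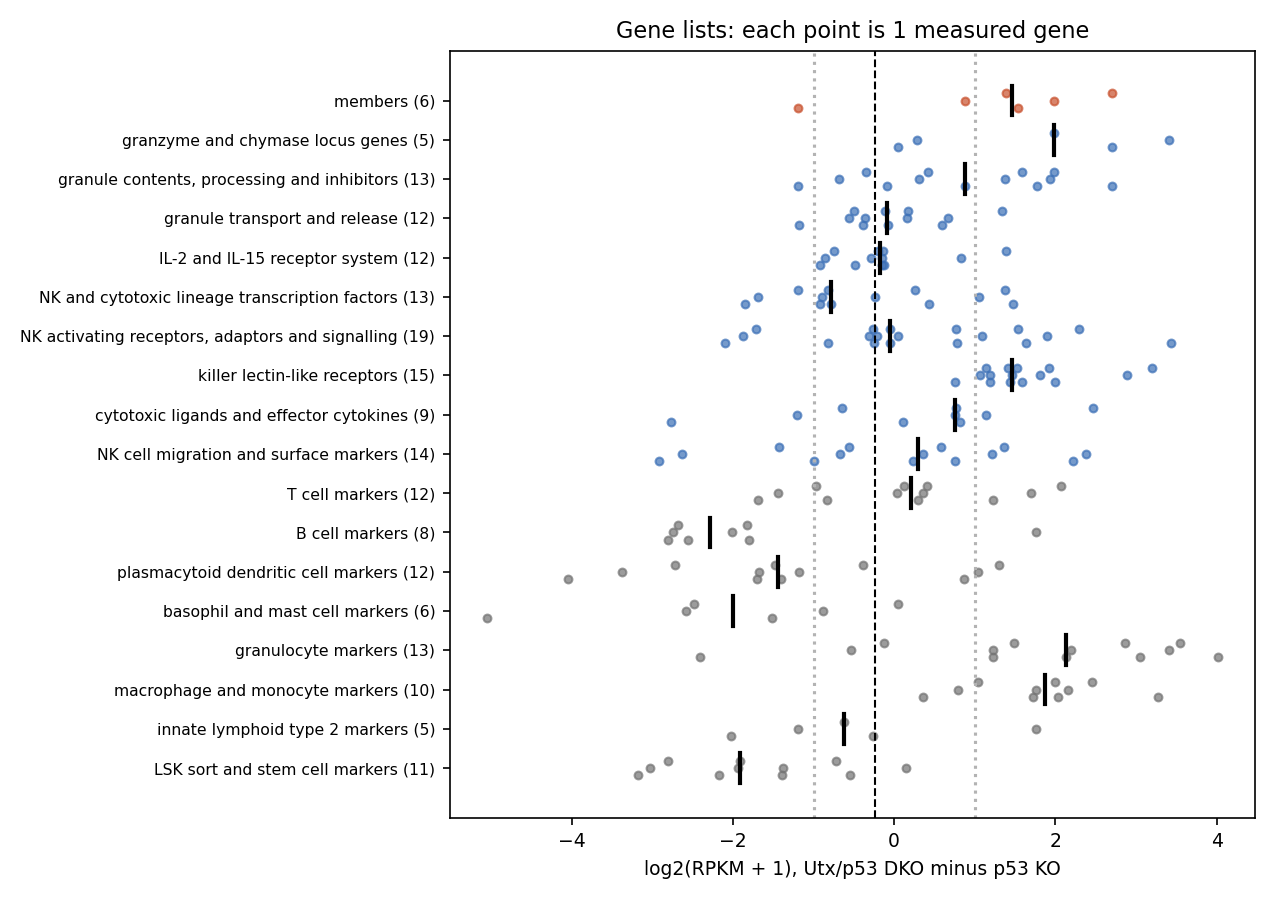
log2(RPKM + 1) difference, Utx/p53 DKO minus p53 KO, of each measured gene (points) in each list, with the number measured in brackets, the list median as a black bar, the median of all genes dashed and 2-fold dotted. The killer lectin-like receptors lie right of the median of all genes without exception, and the transcription factors and T cell markers lie on both sides.

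T cell markers, included because cytotoxic T cells also use granzymes, went both ways. Of 12 measured of 16, 3 were higher, 2 lower and 7 within 2-fold (median 0.21), and the 16 levels summed to 113 and 130.0 RPKM. Cd3d, part of the T cell receptor complex, was 4.31 and 16.2 RPKM, and the costimulatory receptor gene Cd28 8.51 and 38.9 RPKM. The adaptor gene Lat was 26 and 7.4 RPKM and Cd4 2.25 and 0.195 RPKM. The marker Trat1 had 15 and 0 reads, and no T cell marker was at 0 in the p53 KO library.

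Marker lists of other blood cells, among them plasmacytoid dendritic cells and mast cells, which can also use Gzmb, went different ways. Of 12 plasmacytoid dendritic cell markers, all measured, 2 were higher and 8 lower, and Siglech was 25.2 and 0.586 RPKM, Cox6a2 13.3 and 0.381 RPKM, Spib 9.94 and 0.666 RPKM and Ccr9 7.44 and 1.6 RPKM. Klk1 had 33 and 0 reads, and the list summed to 303 and 325 RPKM. The higher ones were Irf8, at 49.6 and 123 RPKM, and Clec12a, at 39.4 and 82.2 RPKM, which other myeloid cells also use, and neither was called with equal totals. Of 6 measured basophil and mast cell markers of 12, 0 were higher and 4 lower, Prss34 at 33.6 and 0.0413 RPKM, Fcer1a at 6.73 and 0.293 RPKM, Hdc at 6 and 0.253 RPKM and Cpa3 at 14.5 and 4.46 RPKM. That list summed to 98 and 33.1 RPKM, with Mcpt4 at 3 and 0 reads. Of 13 measured granulocyte markers, 10 were higher and 1 lower, among them Elane at 1649 and 26714 RPKM, Prtn3 at 370.2 and 3080 RPKM and Lcn2 at 59.5 and 704 RPKM, with sums of 4121 and 41046 RPKM and none at 0. The lower one was Ltf, at 32.9 and 5.42 RPKM. Of 10 measured macrophage and monocyte markers of 12, 8 were higher and 0 lower, with Vcam1 at 2.45 and 32.2 RPKM, Slc40a1 at 2.39 and 17.6 RPKM, Csf1r at 7.61 and 34.3 RPKM and Cd14 at 2.58 and 14.9 RPKM. That list summed to 79.8 and 298 RPKM, and Marco had 1 and 0 reads. Emr1, 1 of its 8 higher genes, passed the filter through the DKO library alone, at 0.739 and 4.72 RPKM. Of 8 measured B cell markers, 1 was higher and 7 lower, with Cd79a at 106 and 14.4 RPKM, Blnk at 30.8 and 3.95 RPKM and Ebf1 at 8 and 0.536 RPKM, and the 10 in the table summed to 509 and 629 RPKM with none at 0. The sum follows Igll1, the higher one, at 166 and 563 RPKM. The part of these cells in the values of the 8 genes was not tested.

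Most markers of the sorted cells were lower, while Ly6a stayed within 2-fold. Of 11 measured LSK and stem cell markers of 12, 0 were higher and 8 lower, and the list summed to 1124 and 502 RPKM with none at 0. Meis1 was 134 and 15.7 RPKM, Cd34 348 and 49.1 RPKM and Flt3 24.5 and 1.83 RPKM. Gzma, Gzmb, Ncr1 and Il2rb were higher in the library in which Kit and these markers were lower, and the part of that shift in their values was not tested.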

How the data were processed

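RNA-seq of LSK cells was analysed from 2 libraries, 1 per genotype as labelled. RNA was, per the labels' protocols, selected with oligo-dT and amplified with a SMART cDNA kit. The build mm9 and the tools TopHat2 2.1.0 and bcl2fastq 1.8.4 are named in the submitters' processing notes. The authors deposited RPKM values and, on a log2 scale, a fold change and a GFOLD value, with a q-value (E-FDR), all written by gfold 1.1.4, per the file headers. Strandedness and the handling of reads with several hits are not given in the sources used here. Columns were assigned by the order in which the file header names the libraries.

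Per symbol the transcript with the highest mean RPKM was used. Differences of log2(RPKM + 1) were compared without a test. Whole reads were recovered from RPKM, as the transcript length at which both values are whole within 1 unit of the last printed digit and match the authors' log2 fold change. This gave 1 solution for 95.2% of 24644 transcripts with reads, including all 8 genes. It was checked on data simulated from transcripts with 1 solution, so the check does not cover the others. Ratios have exact (Clopper-Pearson) and levels exact Poisson 95% intervals. PCR reads without molecular identifiers are not independent molecules. The genes and lists were chosen with earlier results of these data known. Named genes were the 8, Kdm6a, Trp53, the 4 measured genes of each list with the largest absolute difference (some of these are not reported here), the other granzymes and 7 further genes of the receptor systems (Il2rg, Il2ra, Il15ra, Klrb1c, Cd247, Fcer1g, Tyrobp). Kit, Ly6a, list genes at 0, those that complete a small count and neighbouring genes were named after their values were seen. Alternatives were other pseudocounts, filters, scalings, transcript choices and fold rules. Python 3.11.15, pandas 2.3.3, numpy 2.4.6, scipy 1.17.1 and matplotlib 3.10.9 were used.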

Additional observations from a re-analysis of the deposited data

How the results depend on the processing

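All 8 genes kept their direction under every alternative that gives a difference (12 alternatives were set at the start). A pseudocount or a filter cannot reverse a direction. Only the scalings and, for Eomes with its 2 transcripts, the transcript choices could have done so. Gzma and Gzmb were called higher in all 13 settings, the reported one included, Il2rb in 12, Ncr1 in 11 and Prf1 in 4, and Nkg7 was called lower in 11. The count of genes called higher lay between 2 and 5, with 2 (Gzma and Gzmb) under the 3-fold rule. The count called lower was 0 under the 3-fold rule, 0 with the authors' gfold constants and 0 by a GFOLD value of at most -1, an alternative chosen after seeing the data. The median difference of the measured genes, 1.46 as reported, was 0.99 with a pseudocount of 5 and 1.92 with the gfold constants. No paired analysis was possible because each genotype has 1 library. Of the list counts, 346 stayed within 1.5 times the reported count and 62 did not. Eomes (4 reads), Tbx21 (8) and Prf1 (22) have too few reads in the p53 KO library for a precise ratio, and no setting can supply the missing spread between mice.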

Other observations

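Genes by which cytotoxic cells signal to other cells were divided. Of 9 measured cytotoxic ligands and effector cytokines of 11, 2 were higher and 2 lower (median 0.75). Of the 9, 2 passed the filter through the DKO library alone. With a pseudocount of 0.1, 4 were higher and 3 lower, and with the gfold constants 4 and 1. With a pseudocount of 5, 1 was higher and 1 lower, and with equal totals 1 and 2. The list median minus that of all genes was 0.99 as reported and -0.03 with a mean of at least 5 RPKM. Fasl, the Fas ligand of cytotoxic lymphocytes, was 2.39 and 6.46 RPKM (p53 KO first), and Ccl5, a chemokine of the same cells, 41.2 and 232 RPKM. The chemokine gene Ccl4 was 47.2 and 6.08 RPKM and the death ligand gene Tnfsf10 10.5 and 4 RPKM. Of 14 measured genes of NK cell migration and surface phenotype, 4 were higher and 3 lower (median 0.29). The integrin gene Itga1, which marks tissue-resident and type 1 innate lymphoid cells, was 0.548 and 7.03 RPKM, and Itgb2 18.7 and 90.3 RPKM. Itga1 passed the filter through the DKO library alone. Cd27, shared by NK cells and lymphoid progenitors, was 110.0 and 13.8 RPKM, and the egress receptor gene S1pr1 7.36 and 0.348 RPKM. Of 5 measured markers of type 2 innate lymphoid cells of 9, 1 was higher and 2 lower, with Il17rb at 2.53 and 10.9 RPKM, Il7r at 20.8 and 4.35 RPKM, Gata3 at 5.62 and 1.89 RPKM and Rora at 1.67 and 0.733 RPKM. Areg had 1 and 0 reads, and Il13 had 0 in both libraries.

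The genes beside the 8 on their chromosomes, taken in the order of the RefSeq table (GRCm38.p6) and chosen after the values were seen, were looked at for 2 genes on each side. Most did not pass the filter on low values. Of those that did, Rnf17, near Gzmb, was called higher, at 0.557 and 2.14 RPKM, Siglecg, near Nkg7, was called lower, at 8.01 and 1.31 RPKM, and no other was called. Rnf17 passed the filter through the DKO library alone. Gzmc, next to Gzmb, had a log2 difference of -0.34, and Atp12a, on its other side, -0.02. Gzmk, next to Gzma, had 0.13 and Gpx8, on its other side, 0.83 at levels of 0.230 and 1.19 RPKM. Etfb, 2 genes from Nkg7, was 259 and 243 RPKM, a difference of -0.09. Tmprss6 and C1qtnf6, beside Il2rb, had differences of 0.09 and 0.43.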
